A study of Mus musculus with 15 samples.

Results

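The genes described here are 38 transcripts of the unfolded protein response and the integrated stress response, chosen by symbol from the 54390 genes that each count table lists. They comprise 14 endoplasmic reticulum (ER) folding chaperones and co-chaperones, 8 genes of ER-associated degradation, 4 genes for the stress sensors and the factor XBP1, and 12 genes of the ATF4 branch. RNA came from BV2, a mouse microglial cell line used in the study as a model of macrophage-like foamy cells. WT and Trem2-/- cells were cultured overnight in media alone (non-foamy) or with soluble cholesterol at 20 μg/ml (foamy), with 3 libraries from Trem2-/- cells in media alone and 4 libraries from each other group. Trem2 encodes a lipid-sensing surface receptor of myeloid cells. By the study's methods, cells carrying Cas9 were grown from a single clone and Trem2-/- clones were isolated by limiting dilution after guide transfection. How many clones stand behind the Trem2-/- libraries is not given in the sources used here, so genotype and clone cannot be told apart. The methods describe soluble cholesterol as complexed with methyl-beta-cyclodextrin, and cholesterol and its carrier cannot be told apart against media alone. The labels do not say that the libraries of a group came from separate cultures, so p-values measure the spread between these libraries, which may be technical.

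Cells meet unfolded protein in the ER with a transcriptional program run by the membrane sensors IRE1α (*Ern1*), PERK (*Eif2ak3*) and ATF6 (*Atf6*). ATF6 and the spliced form of XBP1 raise chaperones and the machinery that extracts misfolded protein for degradation, largely through promoter sequences called ER stress elements. PERK and other kinases phosphorylate the translation factor eIF2α, which slows protein synthesis while favoring translation of ATF4, the activator of amino acid supply genes and of the pro-apoptotic factor CHOP (*Ddit3*). In macrophages, free cholesterol in the ER membrane is a known trigger of this program.

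Promoter sequences are shown to describe where known elements of this program lie in the members. A link between an element and the differences below was not tested. RefSeq promoters for GRCm38.p6 (250 bases before to 50 bases after the start) matched 33 of the 38 members, and not *Hyou1*, *Manf*, *Derl1*, *Atf6* or *Ppp1r15b*. On either strand, the ER stress element (CCAAT, 9 bases, CCACG) was found in 9 of these 33 members (27.3%). Over all genes with a promoter, counted by symbol as the members are, it was found in 37 of 27025 (0.137%). By role, it was found in 7 of 12 chaperones, 2 of 7 genes of ER-associated degradation, 0 of 3 sensor genes and 0 of 11 genes of the ATF4 branch. The ATF4 composite element (TGATGNAA) was found in 5 of the 33 members (15.2%), of which 4 belong to the ATF4 branch, and in 1219 of all 27025 genes (4.51%). ER stress element II (ATTGG, 1 base, CCACG) was found in *Dnajb11* and *Herpud1* and in 0.0444% of all these genes. The unfolded protein response element (TGACGTGG) was in 0 of the 33 members and in 0.714% of all these genes. No matches of different motifs overlapped. A match of letters is a description of the sequence and was not tested for binding. The lines below each read 5′ to 3′ on the gene's strand. For the ER stress element, capitals mark the fixed bases, and an element that lies in reverse reads CGTGG, 9 bases, ATTGG. For ER stress element II and the ATF4 composite element, capitals mark the whole match, with its 1 free base. The first lines are the chaperones with an ER stress element.
*Hspa5* (chr2:34772010-34772058, + strand): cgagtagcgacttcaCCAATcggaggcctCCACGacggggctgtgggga
*Calr* (chr8:84847060-84847108, − strand): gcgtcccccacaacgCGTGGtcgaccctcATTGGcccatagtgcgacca
*Pdia6* (chr12:17266476-17266524, + strand): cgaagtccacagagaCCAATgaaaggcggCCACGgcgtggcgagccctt
*Creld2* (chr15:88819505-88819553, + strand): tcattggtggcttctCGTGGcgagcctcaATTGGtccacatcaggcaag
*Hsp90b1* (chr10:86705623-86705671, − strand): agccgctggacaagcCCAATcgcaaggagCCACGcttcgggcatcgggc
*Hsp90b1* (chr10:86705518-86705566, − strand): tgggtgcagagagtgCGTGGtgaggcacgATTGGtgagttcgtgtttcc
*Canx* (chr11:50325785-50325833, − strand): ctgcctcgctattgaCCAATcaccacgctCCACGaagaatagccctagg
*Dnajc3* (chr14:118937812-118937860, + strand): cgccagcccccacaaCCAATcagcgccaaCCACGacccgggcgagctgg
The next 2 lines show *Herpud1*, the member with both an ER stress element II and, in reverse, an ATF4 composite element.
*Herpud1* (chr8:94386362-94386402, + strand): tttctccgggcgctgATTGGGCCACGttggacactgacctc
*Herpud1* (chr8:94386302-94386339, + strand): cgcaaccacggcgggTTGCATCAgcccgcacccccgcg
The last 2 lines are ATF4 composite elements of genes that differed in opposite directions between the genotypes, *Asns* (lower in Trem2-/- cells) and *Nupr1* (higher without cholesterol).
*Asns* (chr6:7693210-7693247, − strand): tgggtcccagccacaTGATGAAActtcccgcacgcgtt
*Nupr1* (chr7:126625558-126625595, − strand): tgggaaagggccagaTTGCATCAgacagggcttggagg

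Levels are given as CPM (counts scaled to a common library total with TMM factors), so that a value is a share of the counted RNA of a library, and in bulk RNA fewer cells of a type and less RNA per cell cannot be told apart. A log2 fold change is given ± its s.e., and a mean level ± s.d. A gene was called when its edgeR quasi-likelihood p, adjusted by the Benjamini-Hochberg method over 14237 tested genes, was under 0.05. Of the 38 members, 36 passed the filter on low counts. *Derl3*, a Derlin, had 0 to 2 reads per library, and *Chac1*, a glutathione-degrading enzyme, had 0 to 20 reads, and neither was tested. *Trem2* itself was at 354 ± 41.2 CPM in WT non-foamy and 373 ± 26.4 CPM in WT foamy cells, and 222 ± 8.79 and 224 ± 4.56 CPM in their Trem2-/- counterparts. It was thus lower but still present as RNA in cells labelled Trem2-/- (log2 fold change −0.67 without and −0.73 with cholesterol, adjusted p = 2.85e-07 and 7.09e-08). The study checked the knockout as loss of Trem2 protein by flow cytometry, which RNA counts do not measure. Libraries held 23538963 to 41683825 counted reads. All 10 myeloid marker genes were tested, and their summed level was 3977 to 4841 CPM in WT libraries and 5684 to 5941 CPM in Trem2-/- libraries. T and B cell, neuron, fibroblast and epithelial markers summed to at most 0.389 CPM in any library, and the defining astrocyte (*Gfap*, *Aqp4*) and endothelial (*Cdh5*, *Cldn5*) markers did not pass the filter. The higher myeloid sum moved with the genotype, and its part in the results below was not tested.

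On the scale of mean CPM per kilobase of exon, the abundant members in WT non-foamy cells were chaperones of the ER lumen and membrane. *Calr* (calreticulin, a lectin chaperone) stood at 281 CPM per kb, *Pdia3* (a disulfide isomerase that works with it) at 230.2, *Hspa5* (BiP, the ER Hsp70 that also holds the sensors inactive) at 170.3, *Hsp90b1* (the ER Hsp90) at 169 and *Canx* (calnexin, the membrane-bound lectin chaperone) at 148. The sensors *Ern1* and *Eif2ak3* were at 2.04 and 2.26 CPM per kb, the lowest of the 36 tested members. *Calr* and *Pdia3* held the first and second place in all 4 groups. *Sdf2l1* (a partner of BiP and its co-chaperone ERdj3) fell from place 8 among 38 in WT non-foamy cells to place 13 in Trem2-/- cells.

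**Figure D1:**
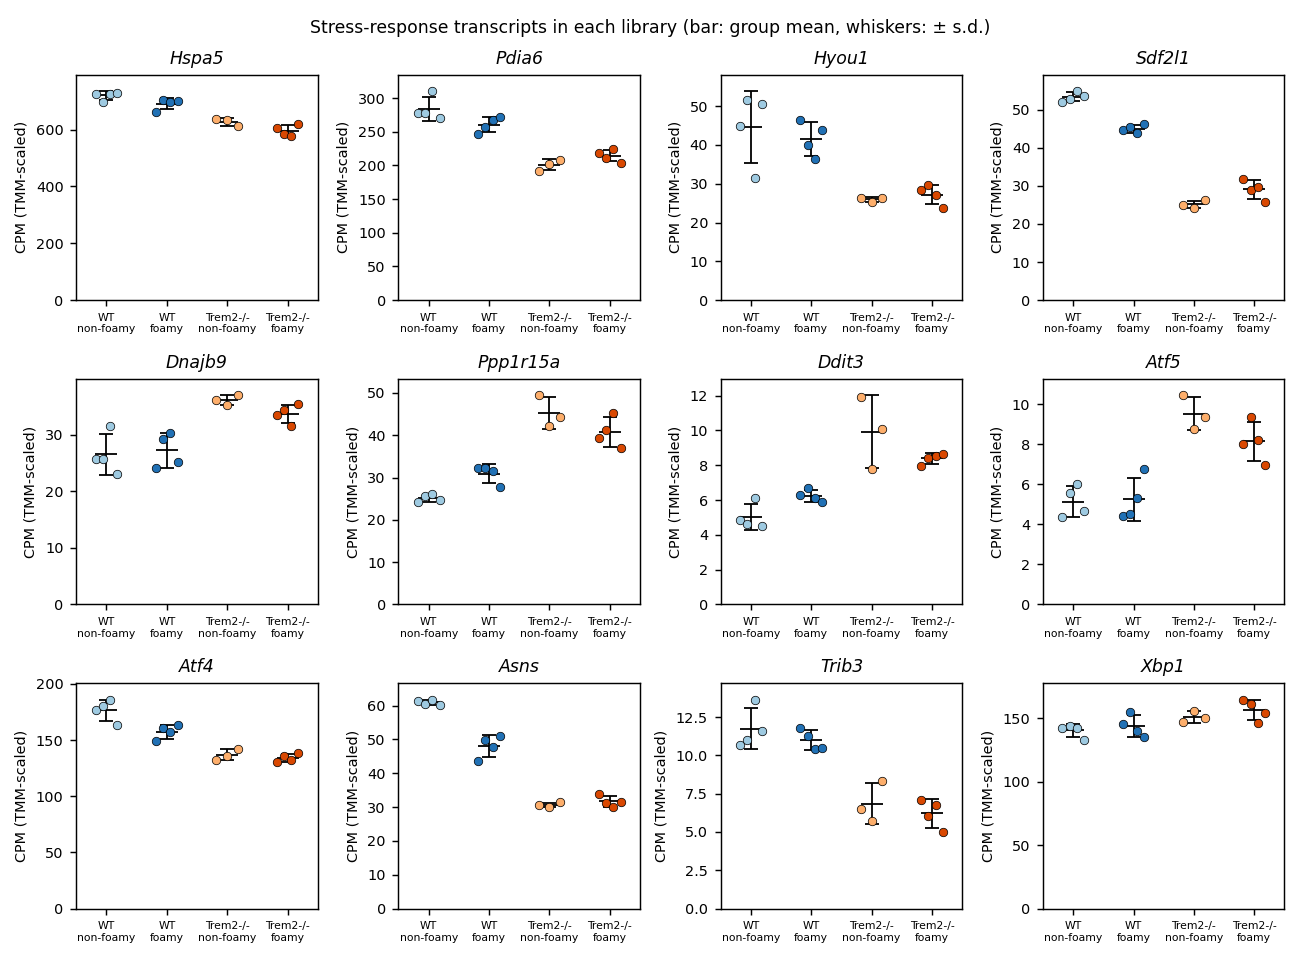
Level of 12 members in each of the 15 libraries, in CPM after TMM scaling on linear axes from 0; points are libraries, bars are group means and whiskers are ± s.d. *Sdf2l1* and *Asns* lie lower in every Trem2-/- library than in every WT library, *Ppp1r15a* and *Atf5* lie higher, and *Xbp1* differs little.

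Trem2-/- and WT cells without cholesterol were compared first, to ask how the stress program stood before lipid loading. Of the 36 tested members, 9 were higher and 15 were lower in Trem2-/- cells. This contrast touched much of the transcriptome: 43.6% of all tested genes were called, 21.0% higher and 22.6% lower, against 66.7% of the members. The median log2 fold change of the members was −0.02, beside 0.02 over all genes. With libraries scaled by total counts alone, which moved the median of all genes to −0.13, the members split into 5 higher and 18 lower. With cholesterol, 6 members were higher and 13 lower (52.8%), beside 14.3% and 15.9% of all genes (30.2% in all), and medians of 0.02 and 0.00. Total counts alone gave 2 higher and 16 lower with an all-gene median of −0.13, and taking out trends of each library with GC content and length of the exons gave 11 higher and 15 lower. The genotypes had no overlapping library values for 25 members without cholesterol, beside 46.1% of all genes, and for 18 members with it, beside 28.8%. The comparisons with and without cholesterol share no library. All 19 members called with cholesterol were also called without it, in the same direction, and 15 of these 19 differed less with cholesterol. The difference was smaller with cholesterol over all tested genes as well, with a median size of 0.32 without and 0.22 with it (log2).

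ER folding chaperones carried most of the lower calls: 11 of 14 were lower and 1 was higher without cholesterol (median log2 fold change −0.43), and 9 were lower and 1 higher with it (median −0.26). The lower calls made up 78.6% and 64.3% of them, beside 22.6% and 15.9% of all genes. *Sdf2l1* (ENSMUSG00000022769, chr16:17130138-17132383 in the GENCODE M21 annotation of GRCm38, as for the genes below) was at 52.1, 52.8, 54.8 and 53.7 CPM in WT non-foamy, 44.7, 45.4, 43.7 and 46.2 in WT foamy, 25.0, 24.2 and 26.2 in Trem2-/- non-foamy and 31.9, 29.0, 29.7 and 25.7 CPM in Trem2-/- foamy libraries. Every Trem2-/- library lay under every WT library, and the Trem2-/- mean was 47.1% of the WT mean without and 64.5% with cholesterol. Its log2 fold change in Trem2-/- cells was −1.09 ± 0.07 with an adjusted p of 1.06e-10 without cholesterol, and −0.63 ± 0.07 with an adjusted p of 2.25e-07 with it.

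*Hyou1* (GRP170, the nucleotide exchange factor of BiP, ENSMUSG00000032115, chr9:44379490-44392369) was at 44.8, 51.4, 31.4 and 50.6 CPM in WT non-foamy, 46.4, 40.0, 36.4 and 43.8 in WT foamy, 26.2, 25.3 and 26.4 in Trem2-/- non-foamy and 28.4, 29.5, 27.0 and 23.8 CPM in Trem2-/- foamy libraries. WT non-foamy libraries were spread widely, with replicate 3 nearest to the Trem2-/- values, yet no WT library reached down to a Trem2-/- library. The log2 fold change was −0.78 ± 0.13 with an adjusted p of 2.26e-05 without and −0.61 ± 0.11 with an adjusted p of 0.000259 with cholesterol.

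*Hspa5* (ENSMUSG00000026864, chr2:34771970-34777547), whose promoter element is the first shown above, was at 727, 698, 726 and 731 CPM in WT non-foamy, 663, 703, 699 and 699.6 in WT foamy, 637, 633 and 612 in Trem2-/- non-foamy and 606, 584, 577 and 619.8 CPM in Trem2-/- foamy libraries. The difference was small but the genotypes did not overlap, at −0.20 ± 0.06 with an adjusted p of 0.00687 without cholesterol and −0.21 ± 0.05 with an adjusted p of 0.00373 with it. *Pdia6* (a disulfide isomerase, ENSMUSG00000020571, chr12:17266545-17284770) was at 278, 278, 310.3 and 270.0 CPM in WT non-foamy, 246, 257, 267 and 272 in WT foamy, 192, 202 and 209 in Trem2-/- non-foamy and 218, 212, 224 and 204 CPM in Trem2-/- foamy libraries. Here too every Trem2-/- library lay under every WT library (−0.50 ± 0.06 with an adjusted p of 1.39e-06, then −0.28 ± 0.06 with an adjusted p of 0.000944).

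Other chaperones that were lower in both comparisons were *Dnajb11* (ERdj3, a co-chaperone that delivers clients to BiP; −0.57 without and −0.43 with cholesterol, log2), *Creld2* (an ER stress-induced resident protein; −0.63 and −0.46), *Manf* (a BiP-binding, secreted survival factor; −0.50 and −0.39), *Calr* (−0.47 and −0.34) and *Pdia4* (a disulfide isomerase; −0.38 and −0.24). Their adjusted p ranged from 3.28e-06 to 7.44e-05 without cholesterol and from 0.000129 to 0.00353 with it, and none overlapped between the genotypes. *Hsp90b1* and *Pdia3* were called lower without cholesterol (−0.36 ± 0.07 and −0.27 ± 0.06, adjusted p = 0.000248 and 0.0011) and not with it (−0.15 ± 0.07 and −0.13 ± 0.06, adjusted p = 0.0859 and 0.0884). Both were called lower with cholesterol without WT foamy replicate 1 (−0.20 and −0.17, adjusted p = 0.0206 and 0.0309). With all libraries kept, both were called with total counts alone (−0.28 and −0.26, adjusted p = 0.000125 and 0.000229). The same held with GC and length trends removed (−0.17 and −0.14, adjusted p = 0.0158 and 0.0302). DESeq2 called *Pdia3* as well (−0.13, adjusted p = 0.0416). *Hsp90b1* shares 10.3% of its exonic bases with the opposite-strand pseudogene *1810014B01Rik*, and *Manf* 4.71% with *4930524O07Rik* and 4.14% with *Dcaf1*; the strand setting of the counting is not stated, so reads there could belong to either gene.

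Not every chaperone was lower. *Canx* was at 696 ± 18.7, 665 ± 26.4, 682 ± 15.2 and 684 ± 47.3 CPM in WT non-foamy and foamy and in Trem2-/- non-foamy and foamy cells, with log2 fold changes of −0.03 ± 0.06 and 0.04 ± 0.06 between the genotypes (adjusted p = 0.737 and 0.656). *Dnajc3* (P58IPK, a BiP co-chaperone and PERK inhibitor) gave −0.09 ± 0.07 and −0.08 ± 0.06 (adjusted p = 0.273 and 0.332). *Dnajb9* (ERdj4, a BiP co-chaperone that represses IRE1α, ENSMUSG00000014905, chr12:44205559-44210326) went the other way. It was at 25.8, 25.8, 31.6 and 23.0 CPM in WT non-foamy, 24.1, 29.3, 30.4 and 25.1 in WT foamy, 36.1, 35.2 and 37.0 in Trem2-/- non-foamy and 33.5, 34.3, 31.6 and 35.5 CPM in Trem2-/- foamy libraries, so that each Trem2-/- library exceeded the WT libraries of its condition. The log2 fold change was 0.45 ± 0.10 with an adjusted p of 0.000646 without cholesterol and 0.31 ± 0.09 with an adjusted p of 0.0122 with it. With total counts alone the latter was 0.18 and not called (adjusted p = 0.0843), *Dnajc3* was called lower in both comparisons (−0.23 and −0.21, adjusted p = 0.00391 and 0.0061), and *Canx* was called lower without cholesterol (−0.17, adjusted p = 0.0101).

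Summed over the 14 chaperones, the level was 4306 to 4386 CPM in WT non-foamy, 3824 to 4162 CPM in WT foamy, 3487 to 3621 CPM in Trem2-/- non-foamy and 3468 to 3705 CPM in Trem2-/- foamy libraries. The 2 Trem2-/- groups overlapped in this sum and the 2 WT groups did not, and every WT library lay above every Trem2-/- library. Of the 8 tested members with an ER stress element, the 5 called lower without cholesterol were *Hspa5*, *Calr*, *Pdia6*, *Creld2* and *Hsp90b1*, and 0 were called higher. With cholesterol 4 were lower, these without *Hsp90b1*. Among the 7 chaperones with it, 5 were lower without and 4 with cholesterol, and among the 5 matched chaperones in which it was not found, 4 were lower without and 3 with cholesterol. The elements of *Canx* and *Dnajc3*, printed above beside these, and that of *Syvn1* belong to members that were not called.

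**Figure D2:**
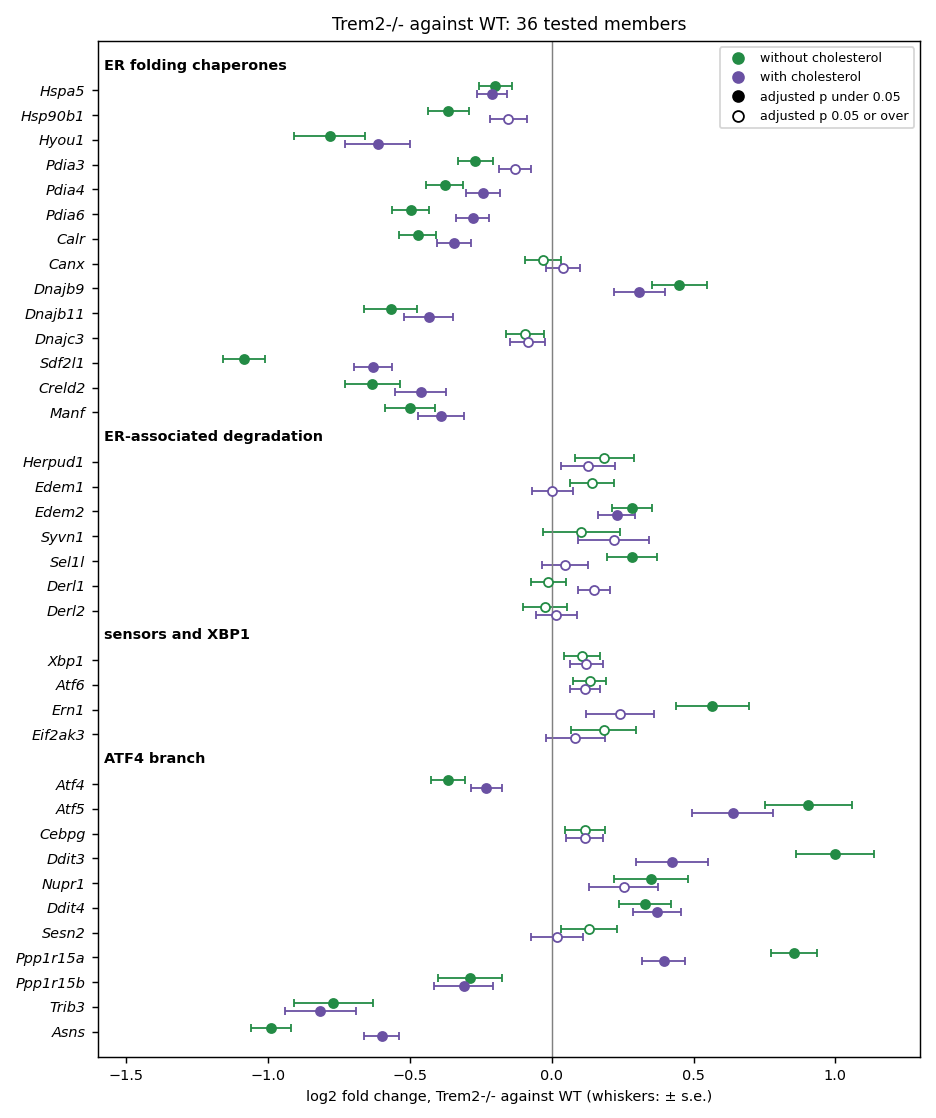
Log2 fold change of the 36 tested members in Trem2-/- against WT cells, without cholesterol (green) and with cholesterol (purple), by role; points are edgeR estimates, whiskers are ± s.e., and filled points had an adjusted p under 0.05. Chaperones lie mostly left of 0, and the ATF4 branch is spread from −0.99 for *Asns* to 0.998 for *Ddit3* without cholesterol.

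Genes of ER-associated degradation did not follow the chaperones. Of 7 tested, 2 were higher (28.6%) and 0 lower without cholesterol (median log2 fold change 0.14), beside 21.0% and 22.6% of all genes. With cholesterol 1 was higher (14.3%) and 0 lower (median 0.13), beside 14.3% and 15.9% of all genes. The higher calls were thus near the share of all genes. Under total counts alone none was called higher in either comparison, and *Derl1* was called lower without cholesterol (−0.15, adjusted p = 0.0487). With GC and length trends removed, *Derl1* and *Syvn1* were also called higher with cholesterol (0.16 and 0.33, adjusted p = 0.0253 and 0.0149). That fit called 4889 of all 14237 tested genes with cholesterol, against 4297 in the main fit. *Edem2* (a lectin-like protein that starts mannose trimming of misfolded glycoproteins) was at 80.2 ± 3.18, 84.7 ± 7.10, 97.6 ± 3.23 and 99.3 ± 6.31 CPM in the order of groups above, giving 0.28 ± 0.07 with an adjusted p of 0.00214 without and 0.23 ± 0.06 with an adjusted p of 0.00957 with cholesterol. *Sel1l* (the adaptor of the HRD1 ubiquitin ligase) gave 0.28 ± 0.09 with an adjusted p of 0.0117 without cholesterol and 0.05 ± 0.08 with an adjusted p of 0.711 with it, and the first call was lost without Trem2-/- non-foamy replicate 1 (0.25, adjusted p = 0.0573). *Syvn1*, which encodes HRD1, gave 0.10 ± 0.14 and 0.22 ± 0.13. *Herpud1* (the ER membrane scaffold of that complex and the carrier of both element types above) gave 0.18 ± 0.10 and 0.13 ± 0.10, with group means of 17.0 to 19.9 CPM. *Edem1* and *Derl2* stayed under 0.15 in size, uncalled in both. *Derl1*, a Derlin of the retrotranslocation channel, gave 0.15 ± 0.06 with cholesterol without overlap between the genotypes (adjusted p = 0.0501), and it was called without WT foamy replicate 4 (0.17, adjusted p = 0.0448). With all libraries kept, DESeq2 called it (0.15, adjusted p = 0.0224), as did edgeR on genes with at least 10 counts in every library (0.15, adjusted p = 0.0352).

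Of the 4 sensor genes, *Ern1* alone was called in the main edgeR fit, without cholesterol. That is 25% of them, beside 43.6% of all genes, and 0 with cholesterol, beside 30.2% of all genes. *Ern1* (the kinase and endonuclease that splices *Xbp1*, ENSMUSG00000020715, chr11:106394650-106487852) was at 16.1, 17.0, 15.1 and 18.4 CPM in WT non-foamy, 27.1, 17.0, 19.2 and 20.8 in WT foamy, 28.4, 22.3 and 23.2 in Trem2-/- non-foamy and 24.3, 25.4, 27.8 and 21.9 CPM in Trem2-/- foamy libraries. The non-foamy groups were apart, and among foamy libraries WT replicate 1 lay within the Trem2-/- range. The log2 fold change was 0.57 ± 0.13 with an adjusted p of 0.00102 without cholesterol and 0.24 ± 0.12 with an adjusted p of 0.133 with it. Without WT foamy replicate 1 the latter became 0.39 and was called (adjusted p = 0.00743). *Xbp1* gave 0.11 ± 0.06 and 0.12 ± 0.06, *Atf6* 0.13 ± 0.06 and 0.12 ± 0.05, and *Eif2ak3* 0.18 ± 0.11 and 0.08 ± 0.10, with adjusted p from 0.0648 to 0.594. *Xbp1* and *Atf6* libraries of the genotypes did not overlap without cholesterol, and DESeq2 called *Atf6* higher in Trem2-/- cells without and with cholesterol (0.13 and 0.12, adjusted p = 0.027 and 0.0399). EdgeR with GC and length trends removed called *Ern1*, *Xbp1* and *Atf6* higher with cholesterol (0.32, 0.16 and 0.16, adjusted p = 0.0127, 0.026 and 0.0108). On genes with at least 10 counts in every library, edgeR called *Atf6* higher without cholesterol (0.14, adjusted p = 0.0403). Counts per gene do not separate the spliced from the unspliced form of *Xbp1*, nor do they show sensor activation.

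The ATF4 branch split. Of 11 tested genes, 5 were higher and 4 lower without cholesterol (median log2 fold change 0.13), and 4 were higher and 4 lower with it (median 0.12). Called in all were 81.8% and 72.7%, beside 43.6% and 30.2% of all genes. The genes called higher were *Ppp1r15a*, *Ddit3*, *Atf5*, *Ddit4* and, without cholesterol alone, *Nupr1*. *Ppp1r15a* (GADD34, the stress-induced subunit that directs a phosphatase to eIF2α, ENSMUSG00000040435, chr7:45522916-45526268) was at 24.2, 25.6, 26.0 and 24.6 CPM in WT non-foamy, 32.2, 32.3, 31.4 and 27.8 in WT foamy, 49.4, 42.1 and 44.4 in Trem2-/- non-foamy and 39.4, 41.2, 45.3 and 36.9 CPM in Trem2-/- foamy libraries. Every Trem2-/- library exceeded every WT library, with means at 181% of WT without and 132% with cholesterol. The log2 fold change was 0.85 ± 0.08 with an adjusted p of 1.78e-08 without cholesterol and 0.40 ± 0.08 with an adjusted p of 0.000359 with it.

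*Ddit3* (CHOP, ENSMUSG00000025408, chr10:127290774-127296288) was at 4.82, 4.64, 6.12 and 4.51 CPM in WT non-foamy, 6.30, 6.70, 6.11 and 5.87 in WT foamy, 11.9, 7.76 and 10.1 in Trem2-/- non-foamy and 7.98, 8.40, 8.54 and 8.65 CPM in Trem2-/- foamy libraries. Trem2-/- non-foamy libraries were the most scattered group, and all of them exceeded the WT libraries. The log2 fold change was 0.998 ± 0.14 with an adjusted p of 3.16e-06 without and 0.42 ± 0.13 with an adjusted p of 0.0136 with cholesterol, and with total counts alone the latter was 0.29 and not called (adjusted p = 0.0758). *Atf5* (an ATF4-related factor, ENSMUSG00000038539, chr7:44812256-44816658) was at 4.36, 5.54, 5.99 and 4.64 CPM in WT non-foamy, 4.42, 4.50, 5.32 and 6.75 in WT foamy, 10.4, 8.77 and 9.37 in Trem2-/- non-foamy and 8.01, 9.35, 8.20 and 6.98 CPM in Trem2-/- foamy libraries. The genotypes were apart in both conditions, with WT foamy replicate 4 coming nearest (0.91 ± 0.15 with an adjusted p of 4.17e-05, then 0.64 ± 0.14 with an adjusted p of 0.0015). *Atf5* shares 4.11% of its exonic bases with the opposite-strand genes *Il4i1* and *Nup62*, and *Ddit3* 3.97% with *Mars*.

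*Ddit4* (REDD1, an inhibitor of mTORC1) gave 0.33 ± 0.09 with an adjusted p of 0.00513 without cholesterol and 0.37 ± 0.08 with an adjusted p of 0.00172 with it, with 43.9 ± 2.03 and 43.3 ± 1.89 CPM in WT non-foamy and foamy cells against 55.1 ± 5.09 and 56.0 ± 8.02 CPM in Trem2-/- cells. The foamy libraries overlapped, with Trem2-/- replicate 4 under WT replicate 1. With total counts alone neither was called (0.19 and 0.24, adjusted p = 0.171 and 0.0701), and without Trem2-/- non-foamy replicate 3 the first was 0.26 and not called (adjusted p = 0.0511). *Nupr1* (a stress-induced chromatin protein) was called higher without cholesterol alone (0.35 ± 0.13 with an adjusted p of 0.0336, overlapping libraries), and that call was lost in 5 of the 7 fits that left out 1 library, the lowest being 0.25 (adjusted p = 0.128) without WT non-foamy replicate 4, and with total counts alone (0.21, adjusted p = 0.165).

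The genes called lower in both comparisons were *Asns*, *Atf4*, *Trib3* and *Ppp1r15b*. *Asns* (asparagine synthetase, ENSMUSG00000029752, chr6:7675169-7693254) was at 61.4, 60.5, 61.7 and 60.0 CPM in WT non-foamy, 43.6, 49.8, 47.8 and 51.1 in WT foamy, 30.6, 30.0 and 31.4 in Trem2-/- non-foamy and 34.0, 31.3, 30.0 and 31.4 CPM in Trem2-/- foamy libraries. Replicates were tight, and the groups fell into separate levels except for the overlapping Trem2-/- pair, whose means were 50.3% and 65.9% of those in WT cells. The log2 fold change was −0.99 ± 0.07 with an adjusted p of 1.75e-10 without cholesterol and −0.60 ± 0.06 with an adjusted p of 2.18e-07 with it. *Atf4* (ENSMUSG00000042406, chr15:80255184-80257541) was at 177, 180.5, 185 and 163 CPM in WT non-foamy, 149, 160.4, 157 and 163 in WT foamy, 132, 136 and 142 in Trem2-/- non-foamy and 131, 136, 132 and 138 CPM in Trem2-/- foamy libraries. All Trem2-/- libraries lay under the WT libraries (−0.37 ± 0.06 with an adjusted p of 3.57e-05, then −0.23 ± 0.06 with an adjusted p of 0.00314). ATF4 is regulated mainly in translation, which these counts do not measure.

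*Trib3* (a pseudokinase induced by ATF4 and CHOP, ENSMUSG00000032715, chr2:152337422-152344032) was at 10.7, 11.0, 13.6 and 11.6 CPM in WT non-foamy, 11.8, 11.3, 10.4 and 10.5 in WT foamy, 6.53, 5.70 and 8.34 in Trem2-/- non-foamy and 7.12, 6.04, 6.77 and 4.98 CPM in Trem2-/- foamy libraries. It was lower in Trem2-/- cells in both conditions without overlap (−0.77 ± 0.14 with an adjusted p of 8.48e-05, then −0.82 ± 0.13 with an adjusted p of 3.48e-05). *Ppp1r15b* (CReP, the constitutive counterpart of GADD34) gave −0.29 ± 0.11 with an adjusted p of 0.0435 without cholesterol and −0.31 ± 0.10 with an adjusted p of 0.0277 with it, the opposite direction to *Ppp1r15a*. Its call was lost without any 1 of WT non-foamy replicates 1, 2 and 4 or Trem2-/- non-foamy replicates 1, 2 and 3 (−0.33 to −0.21, adjusted p = 0.0617 to 0.154), and in the foamy comparison without WT replicate 1 or 2 or Trem2-/- replicate 1 or 4 (−0.32 to −0.25, adjusted p = 0.0532 to 0.0999). It shares 11.4% of its exonic bases with the opposite-strand gene *Gm26616*. *Cebpg* (a dimer partner of ATF4) and *Sesn2* (a leucine-responsive inhibitor of mTORC1) were not called.

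The cholesterol response within each genotype was compared next, to ask whether lipid loading moved the program. In WT cells 3 of 36 members were called, 1 higher and 2 lower, beside 2.80% of all tested genes (1.66% higher and 1.14% lower). Without adjustment 8 had an edgeR p under 0.05, but all genes were not counted at that threshold, so the 2.80% is no measure for it. DESeq2 called 4, the fourth being *Atf4*. Foamy and non-foamy WT libraries did not overlap for 5 members, beside 9.71% of all genes. In Trem2-/- cells 0 were called by edgeR, beside 0.140% of all genes (0.105% higher and 0.0351% lower), and libraries did not overlap for 0 members, beside 9.26% of all genes. There, 1 member (*Sdf2l1*) had an unadjusted p under 0.05, again without a count of all genes at that threshold, and DESeq2 called 0. The members' log2 fold changes in Trem2-/- cells ran from −0.25 to 0.21 with s.e. of 0.06 to 0.15, and the lowest adjusted p was 0.616. The 2 responses have no library in common.

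In WT cells *Asns* fell with cholesterol (log2 fold change −0.34 ± 0.06 with an adjusted p of 0.00336), and the libraries listed above did not overlap. *Ppp1r15a* rose (0.30 ± 0.08 with an adjusted p of 0.0338) and *Sdf2l1* fell (−0.24 ± 0.07 with an adjusted p of 0.0433), both also without overlap. The call of *Sdf2l1* was lost without any 1 of the 8 WT libraries (−0.26 to −0.23, adjusted p = 0.0509 to 0.115). That of *Ppp1r15a* was lost without WT non-foamy replicate 1, 2 or 4 or WT foamy replicate 1, 2 or 3 (0.28 to 0.31, adjusted p = 0.0612 to 0.122). The same genes in Trem2-/- cells gave 0.05 ± 0.07 for *Asns*, −0.15 ± 0.08 for *Ppp1r15a* and 0.21 ± 0.07 for *Sdf2l1* (adjusted p = 0.957, 0.791 and 0.616). *Atf4* gave −0.16 ± 0.06 with an adjusted p of 0.117 in WT cells by edgeR, without overlap between the libraries listed above, and was called lower by DESeq2 (−0.17, adjusted p = 0.029). *Ddit3* and *Ern1*, at 0.33 ± 0.13 and 0.33 ± 0.12 in WT cells, had overlapping libraries and were not called (adjusted p = 0.193 and 0.141). *Hspa5* gave −0.06 ± 0.05 in WT cells and −0.07 ± 0.06 in Trem2-/- cells, and *Xbp1* gave 0.04 ± 0.06 and 0.05 ± 0.06. Among the 14 chaperones, 13 estimates were under 0 in WT cells (median −0.10), of which *Sdf2l1* alone was called, and 5 were under 0 in Trem2-/- cells (median 0.02). Over all tested genes, 51.2% of estimates were above 0 in WT cells and 51.3% in Trem2-/- cells, with a median of 0.005 in each.

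The difference between the responses was tested directly. It was called for 3 of 36 members, 2 higher and 1 lower in the Trem2-/- response, beside 3.64% of all tested genes (1.99% higher and 1.64% lower). For *Sdf2l1* the Trem2-/- response minus the WT response was 0.46 ± 0.10 with an adjusted p of 0.0115, for *Asns* 0.39 ± 0.09 with an adjusted p of 0.0221 and for *Ppp1r15a* −0.46 ± 0.11 with an adjusted p of 0.0247. The call of *Asns* was lost without Trem2-/- non-foamy replicate 1 or 2 or Trem2-/- foamy replicate 1 (0.35 to 0.39, adjusted p = 0.0576 to 0.0658). That of *Ppp1r15a* was lost without WT non-foamy replicate 1, WT foamy replicate 2, Trem2-/- non-foamy replicate 1 or Trem2-/- foamy replicate 1 (−0.44 to −0.39, adjusted p = 0.0533 to 0.102). The *Sdf2l1* call was kept without any 1 library. *Ddit3* had the largest difference among the members, −0.57 ± 0.19 with an adjusted p of 0.0909, and was not called by edgeR. It was called by DESeq2 (−0.57, adjusted p = 0.043) and without WT non-foamy replicate 3 or Trem2-/- non-foamy replicate 2 (−0.67 and −0.72, adjusted p = 0.0375 and 0.0421).

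**Figure D3:**
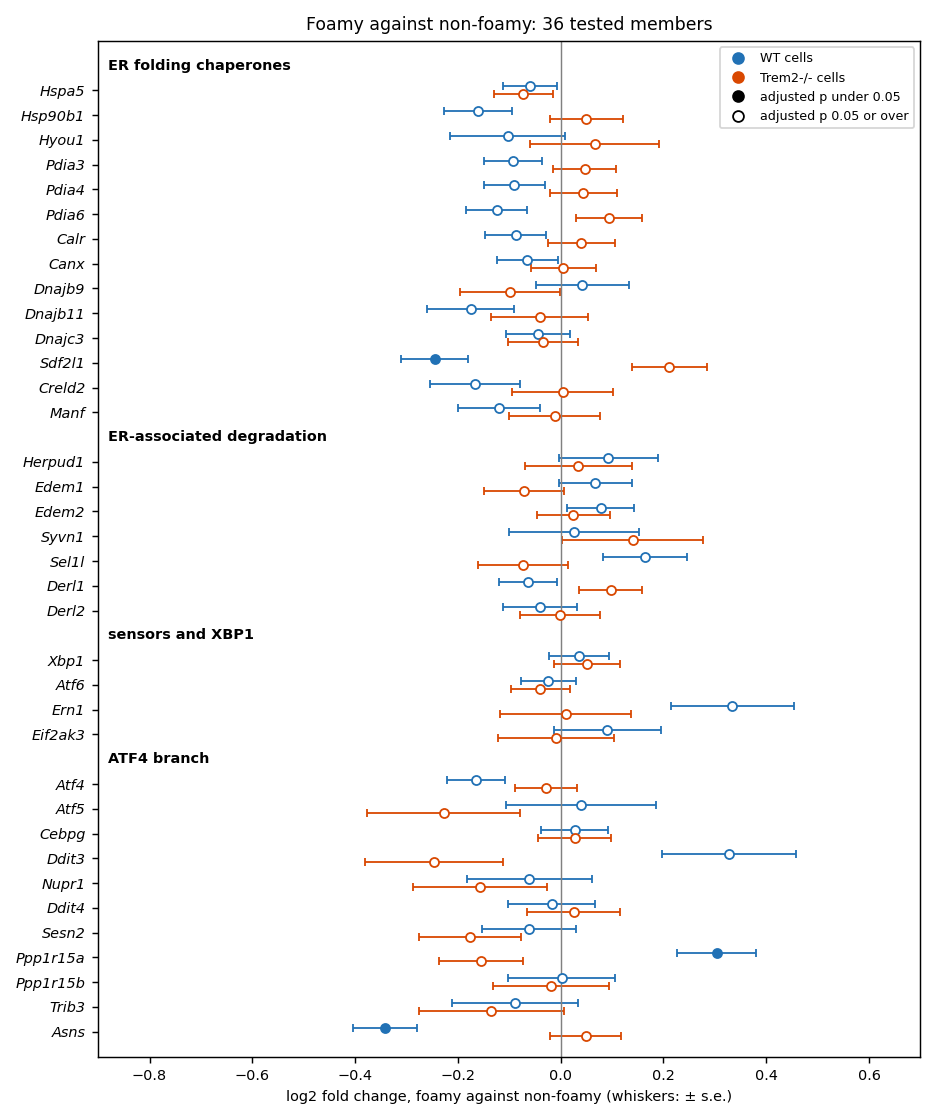
Log2 fold change of the 36 tested members in foamy against non-foamy cells, in WT (blue) and Trem2-/- (orange) cells, by role; points are edgeR estimates, whiskers are ± s.e., and filled points had an adjusted p under 0.05. The 3 filled points, *Sdf2l1*, *Asns* and *Ppp1r15a*, are all in WT cells, and their Trem2-/- points lie on the other side of 0.

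Further genes of these pathways, from lists written for this purpose, were read in the same fits. They hold 123 genes, of which 117 were tested, and *Ero1l* and *Nars* each stand in 2 lists. Without cholesterol 24 were higher and 48 lower in Trem2-/- cells (61.5% called), and with cholesterol 21 were higher and 41 lower (53%), beside the 43.6% and 30.2% of all genes. Genes that supply and charge amino acids under ATF4 lay lower as groups. Of 13 genes of cytosolic tRNA charging, 12 were lower and 0 higher in both comparisons (medians −0.57 and −0.37), led by *Aars* (alanyl-tRNA synthetase, −0.98 ± 0.12 and −0.92 ± 0.11), with *Xpot* (the tRNA exporter) at −0.71 ± 0.07 without and *Mars1* (methionyl-tRNA synthetase) at −0.53 ± 0.09 with cholesterol. Of 9 serine and one-carbon enzymes, 8 were lower without and 7 with cholesterol and 0 were higher, including *Mthfd2* (a mitochondrial folate enzyme, −1.51 ± 0.08 and −0.97 ± 0.07) and *Psph* (the last step of serine synthesis, −0.90 ± 0.13 and −0.68 ± 0.12). Of 8 amino acid transporters, 5 were lower without and 4 with cholesterol, such as *Slc7a5* (the large neutral amino acid carrier, −1.33 ± 0.14 and −1.02 ± 0.13), while 1, *Slc7a11* (the cystine carrier), was higher (0.51 ± 0.10 and 0.50 ± 0.09).

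The 13 further targets of ATF4 and CHOP split, as 6 were higher and 3 lower in non-foamy cells, and 4 higher and 3 lower in foamy cells. Called in all were 69.2% and 53.8%, beside 43.6% and 30.2% of all genes. *Atg12* (an autophagy conjugation factor) was higher (0.75 ± 0.08 and 0.56 ± 0.08), and *Stc2* (a secreted glycoprotein) was lower (−1.15 ± 0.14 and −0.67 ± 0.12). Among 14 other sensors, kinases and factors, 3 were higher and 5 lower in non-foamy cells, and 2 higher and 3 lower in foamy cells. That is 57.1% and 35.7% called, beside the same shares of all genes. *Atf3* (a stress-induced repressor) had group means of 144 ± 11.6, 184 ± 10.6, 278 ± 5.04 and 253 ± 6.86 CPM in WT non-foamy and foamy and in Trem2-/- non-foamy and foamy cells (0.96 ± 0.07 and 0.46 ± 0.06 between the genotypes). It rose with cholesterol in WT cells (0.36 ± 0.06 with an adjusted p of 0.00222), and the responses differed by −0.49 ± 0.09 with an adjusted p of 0.00322. *Atf6b* (the ATF6 paralog) was lower (−0.71 ± 0.10 and −0.55 ± 0.09).

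Of 23 other ER folding genes, 7 were higher and 5 lower without cholesterol, and 10 were higher and 4 lower with it. Called in all were 52.2% and 60.9%, beside 43.6% and 30.2% of all genes. *Sdf2*, the constitutive paralog of *Sdf2l1*, was higher in Trem2-/- cells (0.55 ± 0.09 and 0.53 ± 0.08), while *Pdia5*, a disulfide isomerase, was lower (−0.94 ± 0.11 and −0.82 ± 0.10). *Fkbp11*, a prolyl isomerase of secretory cells, was lower without cholesterol (−0.80 ± 0.10), and its responses differed by 0.66 ± 0.14 with an adjusted p of 0.00951. Of 18 other genes of ER-associated degradation, 5 were higher and 4 lower in non-foamy cells, and 3 higher and 3 lower in foamy cells. That is 50% and 33.3% called, near the 43.6% and 30.2% of all genes. Among them were *Erlec1* (a lectin for misfolded glycoproteins, 0.44 ± 0.07 and 0.37 ± 0.07) and *Vcp* (the extracting ATPase, −0.37 ± 0.08 and −0.29 ± 0.08). Of 21 genes of translocation, signal peptide cleavage and ER export, 2 were higher and 7 lower in non-foamy cells, and 2 higher and 6 lower in foamy cells. That is 42.9% and 38.1% called, beside the same shares of all genes. *Kdelr1* (a receptor that returns ER residents from the Golgi) was at 0.75 ± 0.07 and 0.49 ± 0.06, and *Spcs3* (a signal peptidase subunit) at −0.81 ± 0.07 and −0.73 ± 0.06. The cholesterol response called 5 of the 117 genes in WT cells (4.27%), 1 higher and 4 lower, beside 2.80% of all genes. In Trem2-/- cells it called 1 (0.855%), which was *Ndrg1* (−0.38 ± 0.07 with an adjusted p of 0.0273), beside 0.140% of all genes.

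**Figure D4:**
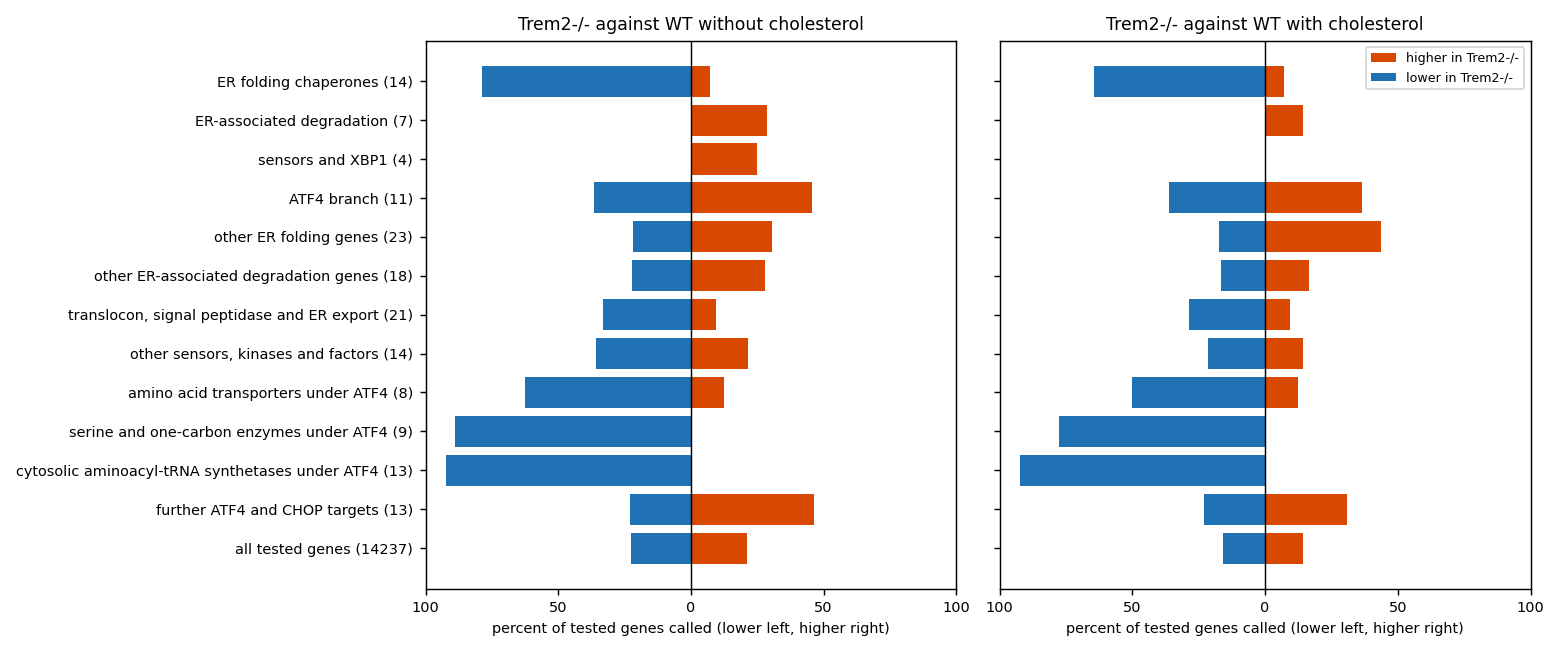
Percent of tested genes called lower (bars to the left) and higher (bars to the right) in Trem2-/- against WT cells, without cholesterol (left panel) and with it (right panel), for the 4 roles of the member list, 8 further pathway lists and all tested genes, with the number tested in brackets. Bars to the left are longest for tRNA charging (92.3% in both panels), serine and one-carbon enzymes (88.9% and 77.8%) and ER folding chaperones (78.6% and 64.3%), beside 22.6% and 15.9% of all genes.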

How the data were processed

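The authors deposited 1 table of raw read counts per library, made per the study's methods with Trimmomatic, HISAT2 on GRCm38 and featureCounts in the CHURP pipeline; strand setting and treatment of multiply mapped reads are not stated. Counts were used as deposited. All 15 libraries were scaled with TMM factors (0.918 to 1.11) and fitted together, with 1 mean per group, with the quasi-likelihood functions of edgeR 4.0.16 (R 4.3.3), after filterByExpr with a minimum count of 10 (14237 genes, 99.97% of counts). There were 5 contrasts: the cholesterol response of each genotype, the genotypes without and with cholesterol, and the difference of the responses. The s.e. is that of the fitted log2 fold change. The biological coefficient of variation was 10.2%, and 21 replicate pairs differed beyond counting noise (chi-square per gene 5.75 to 43.3). Labels name no batch. The design follows the study's group comparisons, with DESeq2 1.42.0 (the study's tool) as an alternative. Members, lists and alternatives were chosen with earlier results of these data known, so no list was tested and the members' counts are set beside those of all genes. All 38 members could be named, and of each further list the 2 called genes with the largest increase and decrease per contrast with a mean of at least 1 CPM. Exonic lengths, overlaps and gene coordinates are from the GENCODE M21 annotation of GRCm38. The scripts were tested on simulated counts. Protein sequences were not used here.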

Additional observations from a re-analysis of the deposited data

Results flagged for a closer look

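The cholesterol response differed between the genotypes, by the test of the difference itself, for *Sdf2l1* (Trem2-/- response minus WT response 0.46 on the log2 scale), *Asns* (0.39) and *Ppp1r15a* (−0.46). Each was called in the WT response, and its estimate in Trem2-/- cells had the other sign and was not called.

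Of 108 groups of 4 libraries examined for a library apart from the other members of its group, 8 were flagged at a gap ratio above 0.829, and chance flags about 1 in 20 groups. WT non-foamy replicate 3 stood apart for *Dnajb11* (43.4 CPM), *Dnajc3* (54.2 CPM) and *Manf* (81.7 CPM). It held 23538963 counted reads, the fewest of the 15 libraries. WT foamy replicate 1 stood apart for *Hspa5* (663 CPM, others 699 to 703) and *Ddit4* (46.1 CPM). The others were WT non-foamy replicate 2 for *Hspa5* (698 CPM), WT non-foamy replicate 4 for *Xbp1* (133 CPM) and Trem2-/- foamy replicate 3 for *Syvn1* (17.3 CPM).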

How the results depend on the processing

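No called value of a member reversed its direction under any alternative. In WT cells the cholesterol response called 1 member higher and 2 lower. The higher count became 0 with total counts, with only the libraries compared and in a test past a log2 fold change of 0.25, and 2 without a filter on low counts. The lower count became 1 with total counts, without the filter, with only the libraries compared and with the replicate number as a block, and 0 past 0.25. For the difference of the responses (2 higher, 1 lower), the higher count became 1 with the block and 0 past 0.25. The lower count became 0 with total counts, with the block and past 0.25, and 2 with DESeq2 and with GC and length trends removed, an alternative chosen after seeing the data. Genotype counts with cholesterol (6 higher, 13 lower) became 2 higher with total counts, 11 higher with GC and length trends removed, and 1 higher and 5 lower past 0.25. Without cholesterol, the 9 higher became 5 both with total counts and past 0.25. The cause of these shifts was not tested. Leaving out 1 library at a time gave 0 to 1 higher and 1 lower in the WT response, 0 in the Trem2-/- response, 1 to 2 higher and 0 to 2 lower for the difference, 7 to 9 higher and 14 to 15 lower without cholesterol, and 6 to 7 higher and 12 to 14 lower with it.

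Correlations showed no general pairing by replicate number: 3 of 21 same-numbered pairs of groups had deviations correlated above 0.1 (−0.25 to 0.37), and 4 of 15 libraries correlated best with their own number. Differently numbered pairs ran from −0.47 to 0.34. The highest value, 0.37, joined replicate 3 of WT non-foamy and WT foamy cells, so these correlations do not exclude that replicate numbers pair some libraries. With the number as a block, *Sdf2l1* lost its WT call (adjusted p = 0.0675), and *Asns* and *Ppp1r15a* lost the call of the difference (adjusted p = 0.0528 and 0.0513). Low counts limit *Derl3* and *Chac1*, which were not tested, and the 3 libraries of Trem2-/- non-foamy cells limit the precision of that group.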
